A study of Mus musculus with 76 samples.

Results

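The 7 genes described here encode the nuclear receptors for steroid and thyroid hormones, with their retinoid X receptor partners: *Nr3c1*, *Nr3c2*, *Esr1*, *Thra*, *Thrb*, *Rxra* and *Rxrb*. They were chosen by name, with measured values of these cells already known, from the 56980 genes of the deposited count table, and all 7 were found there. Their Ensembl identifiers in the table are ENSMUSG00000024431 (*Nr3c1*), ENSMUSG00000031618 (*Nr3c2*), ENSMUSG00000019768 (*Esr1*), ENSMUSG00000058756 (*Thra*), ENSMUSG00000021779 (*Thrb*), ENSMUSG00000015846 (*Rxra*) and ENSMUSG00000039656 (*Rxrb*). Nuclear receptors are transcription factors that a small fat-soluble ligand switches on. The glucocorticoid and estrogen receptors act largely as pairs of the same receptor, while thyroid hormone receptors bind DNA mostly together with a retinoid X receptor. In the arcuate nucleus, Pomc neurons restrain food intake, and circulating corticosterone, sex steroids and thyroid hormone are all known to act on feeding circuits of the hypothalamus.

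Each of the 76 samples is 1 hypothalamic cell of a mouse, patched in a brain slice, whose content was drawn into the pipette after recording, amplified with a SMART-Seq kit for single cells and sequenced from Nextera XT libraries. The study's results give the mice as Pomc^CreERT2;tdTomato;Pomc-eGFP, while its Patch-seq methods give Pomc^CreERT2;tdTomato. The study worked with males unless it says otherwise, gave tamoxifen at 12 weeks of age, and fed 5 mice per diet either chow (CD) or a high-fat diet (HFD) for 6 months. Cells were traced by tdTomato, whose Cre is driven by the *Pomc* promoter, so a cell is marked for having used that promoter when tamoxifen was given. Pomc+ cells also showed the eGFP of the *Pomc* transgene, and Ghost cells did not. On CD 23 cells were Pomc+ and 15 were Ghost. On HFD each label had 19 cells. The labels do not say which mouse a cell came from, so each label on each diet counts as 1 sample, and no p-value was made.

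The depth of the cells differed widely. In Pomc+ cells on CD the lowest total count was 32151, the median 339691 and the highest 1452605. Among Ghost cells on CD the lowest was 4057, the median 123528 and the highest 985226. For HFD, Pomc+ cells had 10534 as the lowest, 393797 as the median and 1435547 as the highest total, while Ghost cells had 12847, 333785 and 1306718. Ghost cells on CD were the shallowest group. Levels are in CPM, which is 1000000 times a gene's count over all counts of the cell. Shares of cells with a count carry exact Clopper-Pearson intervals at 95%, and ratios of summed counts, in which deep cells weigh more, carry exact 95% intervals for the ratio of a pair of Poisson counts. The latter cover counting error only, and the reads have no molecular identifiers. The intervals of shares treat the cells of a group as independent, although they came from 5 mice per diet, so they leave out the spread between mice. The 7 genes with a count in every cell, which are other genes than the receptors, took 34.8% of the counts in Pomc+ and 53.1% in Ghost cells on CD, and 46.8% and 45.9% on HFD.

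The cells carried neuronal and Pomc lineage transcripts under both labels. All 6 genes of the neuron list were counted, none of them differed 2-fold between labels over both diets or between diets over both labels, and their summed mean level was 1967 CPM in Pomc+ and 1406 CPM in Ghost cells on CD, and 1822 and 1352 CPM on HFD. Within Pomc+ cells *Syt1*, a calcium sensor gene of synaptic vesicles named after its values were seen, had an HFD to CD ratio of 0.344. In the deposited normalized counts, which have a size factor per cell, *Syt1* was not past 2-fold there, while 1 other gene was, at 0.449. By that scaling 3 of the 6 were 2-fold lower in Ghost cells on CD and none on HFD. Within Ghost cells 1 was lower on HFD. *Snap25*, a synaptic fusion protein gene, was the most abundant of the neuron list by summed counts, as for each list here, and had a count in 67 cells. *Pomc* itself had a count in 41 of 42 Pomc+ cells and in 32 of 34 Ghost cells, so the label without eGFP did not mean a cell without *Pomc* counts. The 6 genes of the Pomc neuron list, with *Pomc* as the most abundant, summed to 15369 CPM in Pomc+ and 9108 CPM in Ghost cells on CD, and to 5736 and 5673 CPM on HFD. Of these 6 none was 2-fold higher and 1 lower in Ghost cells, and none was 2-fold higher and 2 lower on HFD. In normalized counts 4 of the 6 were 2-fold lower in Ghost cells and 3 on HFD. *Nhlh2*, a transcription factor gene, had a Ghost to Pomc+ ratio of mean CPM of 0.424 and an HFD to CD ratio of 0.156, and *Pomc* had an HFD to CD ratio of 0.372. The Ghost to Pomc+ ratio of *Pomc* was 0.610 in CPM and 0.376 in normalized counts. In CPM it was 0.540 on CD and 1.08 on HFD.

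*Thra* was the receptor gene most often seen. It encodes thyroid hormone receptor alpha and had a count in 63 of 76 cells. *Nr3c1*, the glucocorticoid receptor gene, followed with 44 cells, then *Rxrb* with 22, *Esr1* and *Thrb* with 20 each, *Rxra* with 9 and *Nr3c2* with 8. Per kilobase of annotated exon, mean levels over all cells were 38.9 CPM for *Thra*, 8.23 for *Nr3c1*, 6.62 for *Rxrb*, 2.95 for *Thrb*, 2.13 for *Esr1*, 1.20 for *Rxra* and 0.581 for *Nr3c2*. Lengths came from the annotation and not from the transcripts made in these cells, so the scale compares genes only roughly. *Thra* stood well above the others on that scale. The order among *Rxrb*, *Thrb* and *Esr1* rests on few cells each, and their intervals for the share of cells overlap.

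**Figure D1:**
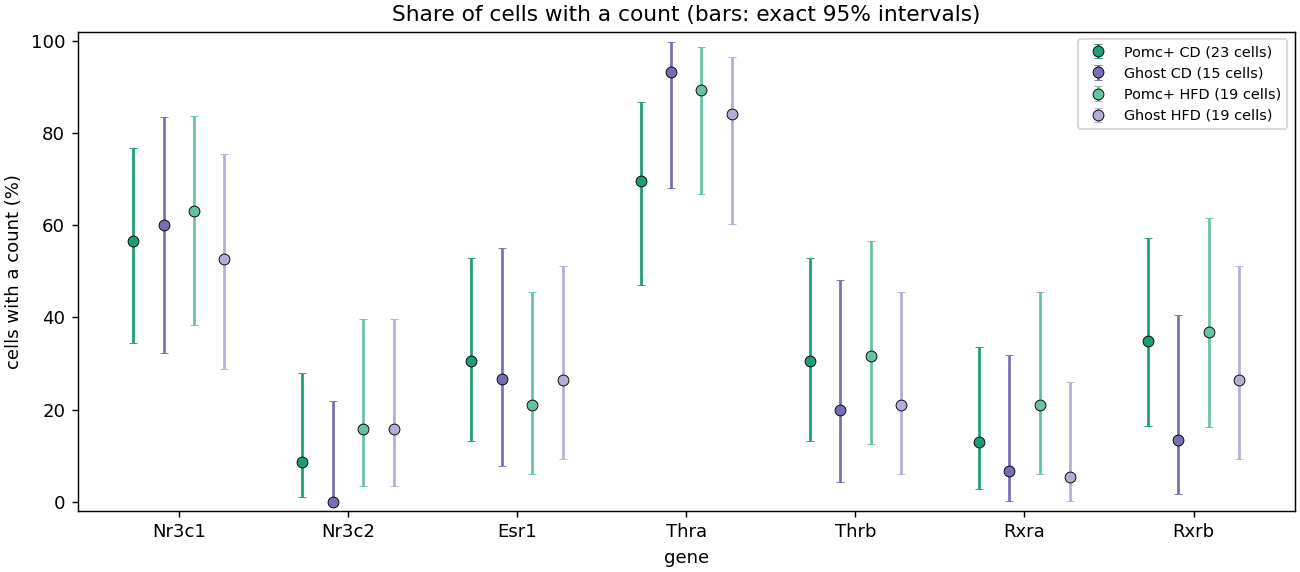
Percent of cells with at least 1 count (vertical axis) for the 7 receptor genes (horizontal axis) in the 4 groups of label and diet, with exact 95% intervals as bars. *Thra* lies between 69.6% and 93.3% and *Nr3c1* between 52.6% and 63.2%, and for every gene the intervals of the 4 groups overlap.

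The other 42 genes of the nuclear receptor superfamily give a scale for this. Of them 4 had a count in at least 20 cells and 8 had none, with a median of 5.5 cells, against 5 of the 7 receptors described here in at least 20 cells. The most widely counted of the 42 was *Nr1d2*, a heme-binding receptor of the circadian clock, in 27 cells. Most cells held few receptor transcripts. The median was 2 of the 7 genes per cell, 7 cells had none, 33 had at least 3, and 1 Pomc+ cell on CD, number 630, had all 7.

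The question put to these genes is whether cells of the Pomc lineage without eGFP differ from those with it, and whether diet changes either. A gene entered the comparison when it had a count in at least 10 cells, which 9130 genes and 5 of the 7 receptors did. *Rxra* and *Nr3c2* fell short. Between labels over both diets, none of the 5 was at least 2-fold higher in Ghost cells and 1, *Nr3c1*, was at least 2-fold lower. Among all 9130 genes 13.3% were higher and 19.8% lower by that rule, 33.1% in either direction. The median ratio of the 5 receptors was 0.919 and that of all genes was also 0.919. The receptor median is the ratio of *Rxrb* itself, which was 0.403 without Ghost cell 649. In normalized counts *Nr3c1* was again the only 1 of the 5 past 2-fold, against 42.2% of all genes, and the medians were 0.569 and 0.650. By diet the medians were 1.10 and 1.01 in CPM, and 0.808 and 1.01 in normalized counts.

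The scaling matters for directions. Over all 9130 genes the median of the log2 ratios, Ghost to Pomc+, was -0.12 in CPM and -0.62 in normalized counts, and 40.2% of the 2-fold differences were higher in Ghost cells in CPM against 18.3% in normalized counts. Within CD those medians were -0.11 and -0.80, and within HFD -0.19 and -0.47. For HFD to CD they were -0.04 and 0.26 in Ghost cells, and 0.07 and -0.08 in Pomc+ cells.

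Within 1 diet or 1 label the groups are smaller and the background is higher. On CD, 1 of the 5 receptors differed 2-fold between labels (*Thra*, higher in Ghost cells), against 47.8% of all genes. On HFD 3 did (*Esr1* higher, *Nr3c1* and *Thrb* lower), against 47.2%. Between diets over both labels 1 did (*Thrb*, higher on HFD), against 31.5% of all genes, of which 16.8% were higher and 14.6% lower. Within Ghost cells 1 did (*Nr3c1*, lower on HFD), against 51.2%, and within Pomc+ cells 3 did (*Thra* and *Thrb* higher, *Esr1* lower on HFD), against 42%. In normalized counts some of these calls changed. On CD none of the 5 was 2-fold higher in Ghost cells and 2 were lower (*Nr3c1* at 0.478 and *Rxrb* at 0.364), against 55.1% of all genes in either direction. On HFD the same 3 were past 2-fold, against 50.4%. Between diets none was, against 35.5%, and within Ghost cells *Nr3c1* still was, against 49.5%. Within Pomc+ cells 1 was higher (*Thra*) and 2 lower on HFD (*Esr1* and *Rxrb*), against 47.6%. With 5 genes such counts are near the background, so they are not a result about the receptors. The shares over all genes are also the background for the tallies of the gene lists.

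Of the steroid receptors, *Nr3c1* was lower in Ghost than in Pomc+ cells on HFD, and of the 3 its ratios moved least with any 1 cell left out. The glucocorticoid receptor binds corticosterone and carries its effects on metabolism and stress. In Pomc+ cells on CD *Nr3c1* ran from 0 to 295 CPM with a median of 9.59 and a mean of 74.5. In Ghost cells on CD it ran from 0 to 253 CPM with a median of 28.4 and a mean of 59. The CD groups covered much the same range.

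On HFD *Nr3c1* ran from 0 to 433 CPM with a median of 17.4 and a mean of 97.1 in Pomc+ cells. In Ghost cells on HFD it ran from 0 to 71.5 CPM with a median of 5.36 and a mean of 19.2. The groups overlapped at the low end, but 7 of the 19 Pomc+ cells lay above the highest Ghost cell. The ratio of mean CPM, Ghost to Pomc+, came to 0.791 on CD against 0.198 on HFD. In normalized counts these were 0.478 and 0.128. Against the median of all genes the log2 ratio on HFD was -2.15 in CPM and -2.49 in normalized counts. From summed counts the ratio on HFD was 0.335 (interval 0.288 to 0.388), and on CD 0.519 (0.444 to 0.604). Without Pomc+ cell 645 the HFD value was 0.490 (0.418 to 0.574), and without Pomc+ cell 630 the CD value was 0.637 (0.543 to 0.746).

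The shares of cells with a count were closer than the levels. *Nr3c1* was counted in 12 of 19 Pomc+ cells on HFD (63.2%, interval 38.4% to 83.7%) and in 10 of 19 Ghost cells (52.6%, 28.9% to 75.6%). Leaving out any 1 cell kept the HFD ratio between 0.168 and 0.245. Without the 2 highest Pomc+ cells, numbers 645 and 654, it was 0.314.

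The cell numbers fall into 8 runs that alternate between the diets. The labels do not say what a run is, so runs are neither batches by name nor replicates. Within the HFD runs the *Nr3c1* ratio of Ghost to Pomc+ was 0.224 in cells 637 to 657, 0.123 in cells 670 to 673, which hold 1 Ghost cell, and 0.235 in cells 713 to 720. In cells 693 to 698 the only Pomc+ cell had no *Nr3c1* count, while 1 of the 4 Ghost cells, number 695, had 53.9 CPM. Within the CD runs it was 1.58, 0.442 and 2.22, and in cells 630 to 636 the 3 Ghost cells had no count. *Nr3c1* was thus lower in Ghost cells in 3 of the HFD runs and higher in the other, and went both ways on CD.

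By diet, *Nr3c1* in Ghost cells had an HFD to CD ratio of 0.325, which stayed between 0.276 and 0.426 with any 1 cell left out, and was 0.547 without the CD cells 668 and 661. From summed counts it was 0.593 (interval 0.491 to 0.716), and 0.908 (0.729 to 1.14) without cell 661. In Pomc+ cells the ratio was 1.30, and 0.820 without cells 645 and 654. From summed counts it was 0.919 (0.831 to 1.02), and 1.13 (1.01 to 1.26) without cell 630. Whether the label ratio differs between the diets was not tested.

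**Figure D2:**
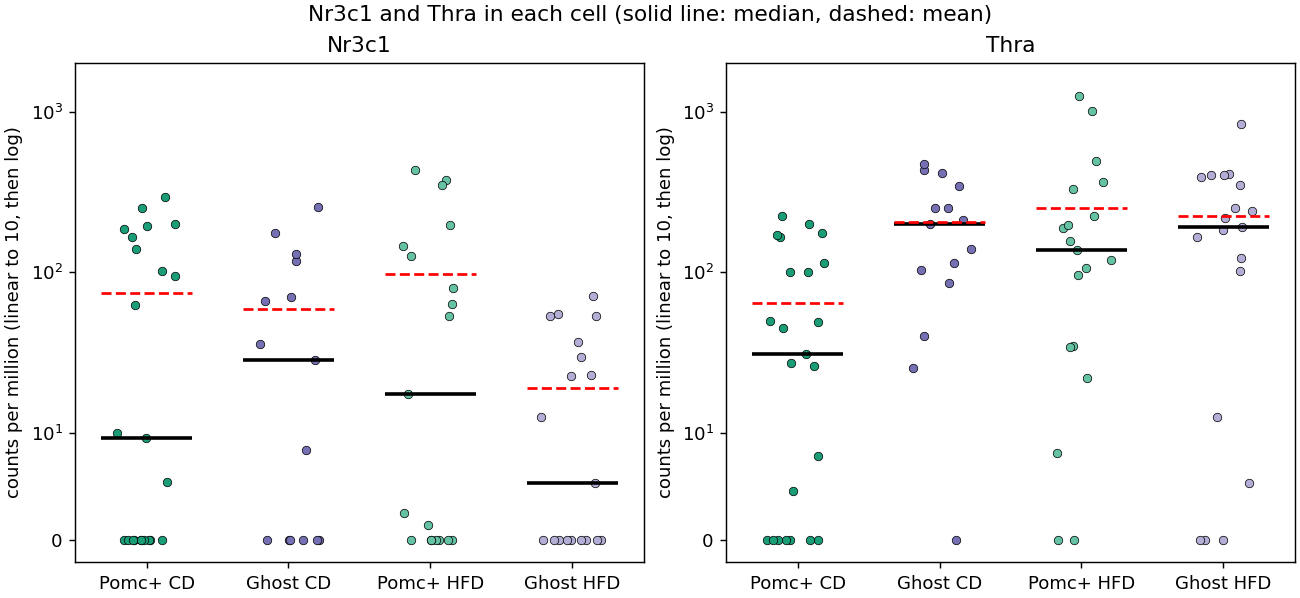
*Nr3c1* (left) and *Thra* (right) in each cell, in CPM on an axis that is linear to 10 and logarithmic above, by label and diet; each point is a cell, the solid line the median and the dashed line the mean. Ghost cells on HFD reach 71.5 for *Nr3c1* against 433 in Pomc+ cells, and Pomc+ cells on CD reach 225 for *Thra* against 469 in Ghost cells.

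Several astrocyte transcripts were also lower in Ghost cells, on both diets. All 6 genes of the astrocyte list were counted, with *Slc1a2*, a glutamate transporter gene, as the most abundant. They summed to 217 CPM in Pomc+ and 196 CPM in Ghost cells on CD, and to 362 and 69.6 CPM on HFD. Of the 5 with a count in at least 10 cells, 4 were at least 2-fold lower in Ghost cells on HFD and 3 on CD, and none was 2-fold higher on either diet. Among all genes 28.8% were 2-fold lower in Ghost cells on HFD and 27% on CD. *Slc1a2* itself had a label ratio of 1.71 on CD and 0.194 on HFD. In normalized counts the label ratios of all 5 on CD were below 1, the highest at 0.681. Over both diets none was 2-fold higher and 2 were lower, or 4 lower in normalized counts, and by diet 2 were higher on HFD and none lower. Over both diets the label ratio was 0.149 for *Slc1a3*, also a glutamate transporter gene, 0.781 for the water channel gene *Aqp4* and 0.0732 for the gap junction gene *Gja1*. The correlation of *Nr3c1* with the summed list, on log2(CPM + 1) over 76 cells that differ in depth, was 0.249, and within the 4 groups it ran from -0.00531 in Ghost cells on CD to 0.605 in Ghost cells on HFD. With the cells left out that had a count of *Aqp4*, *Aldh1l1* or *Gja1*, a setting chosen after the values were seen, the *Nr3c1* ratio on HFD was 0.189 over 12 Ghost and 10 Pomc+ cells. The part of the more widely counted astrocyte genes was not tested.

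Genes that glucocorticoids are known to induce were lower in sum in Ghost cells on HFD, and on CD the mean of the sum was higher there and its median lower. The 11 genes of that list, all counted, summed to 225 CPM in Pomc+ and 320 CPM in Ghost cells on CD, and to 373 and 135 CPM on HFD. The medians of the sum over cells were 153 and 141 CPM on CD, and 302 and 48.5 CPM on HFD. Over both diets, 2 of the 9 with enough cells were 2-fold higher and 3 lower in Ghost cells, where 13.3% of all genes were higher and 19.8% lower. In normalized counts none was higher and 3 were lower, and *Per1* went from 2.38 to 0.768. By diet 2 were higher and 1 lower on HFD. On HFD 5 of 9 were 2-fold lower (*Per1*, *Tsc22d3*, *Klf9*, *Dusp1* and *Nfkbia*) and 2 higher (*Fkbp5* and *Cdkn1a*), where 28.8% of all genes were lower and 18.4% higher. On CD 4 of 9 were 2-fold lower (*Sgk1*, *Dusp1*, *Errfi1* and *Nfkbia*) and 2 higher (*Per1* and *Tsc22d3*), where 27% of all genes were lower and 20.8% higher. *Fkbp5*, *Per1*, *Tsc22d3*, *Cdkn1a*, *Sgk1* and *Nfkbia* are named after their values were seen.

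*Dusp1*, a phosphatase gene that glucocorticoids and many other signals induce, was the most widely counted of that list, in 27 cells, with a label ratio of 0.284. Its mean was 79.1 CPM in Pomc+ and 26.2 CPM in Ghost cells on CD, and 111 and 26.9 CPM on HFD, so it was lower in Ghost cells on both diets. *Errfi1*, a feedback inhibitor of EGF receptor signalling, had a label ratio of 0.435. *Fkbp5*, a co-chaperone that restrains the glucocorticoid receptor and is itself among its best known targets, had 1.87 CPM in Pomc+ and 17.7 CPM in Ghost cells on HFD.

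Cell by cell the relation was weak. The correlation of *Nr3c1* with the summed target list, on log2(CPM + 1) over 76 cells, was 0.24, and within the 4 groups it ran from -0.05 in Pomc+ cells on HFD to 0.57 in Ghost cells on HFD. The genes share the depth of each cell, and in sparse counts a weak correlation is no finding. *Klf9* was counted in 21 of the 44 cells with *Nr3c1*, which made up 21 of the 26 cells with *Klf9*. Cells with an *Nr3c1* count had a median total of 376686 counts, and those without one 205898.

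The chaperones that hold steroid receptors ready for ligand were plentiful. All 7 were counted in at least 10 cells, with *Hspa8* in 74, and they summed to 4666 CPM in Pomc+ and 4157 CPM in Ghost cells on CD, and to 4087 and 4107 CPM on HFD. Of them 1, *Fkbp5*, was 2-fold higher in Ghost cells over both diets, at 2.09 in CPM and 1.53 in normalized counts, none was lower, and none differed 2-fold between diets over both labels. In normalized counts 6 of the 7 label ratios were below 1. By that scaling 4 of the 7 were 2-fold lower in Ghost cells on CD, and 1 was higher on HFD. Of all genes 55.1% differed 2-fold by label on CD and 50.4% on HFD in that scaling. For HFD to CD, 3 of the 7 were lower in Pomc+ cells and 1 was higher in Ghost cells, against 47.6% and 49.5% of all genes in either direction. In CPM 2 of the 7 passed 2-fold within 1 diet or 1 label. *Fkbp5* had a label ratio of 9.47 on HFD and an HFD to CD ratio of 0.124 in Pomc+ cells. It was counted in 15 cells, and its mean in Pomc+ cells on HFD was 1.87 CPM. The co-chaperone gene *Stip1* had a label ratio of 0.399 on CD and an HFD to CD ratio of 2.52 in Ghost cells, and is named after its values were seen.

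*Nr3c2* encodes the mineralocorticoid receptor, which binds corticosterone as well as aldosterone. It was barely seen, with 51 counts in all. It had a count in 2 of 23 Pomc+ and 0 of 15 Ghost cells on CD, which allows a share of up to 20% in the latter by 3 over the number of cells and 21.8% by the exact interval, and in 3 of 19 cells of each label on HFD. The mean CPM was 7.43 times higher in Ghost cells over both diets, but this rests on cell 713, where 3 counts in a total of 12847 make 234 CPM. Without that cell the ratio was 0.358, and from summed counts it was 0.516 (interval 0.258 to 0.977). That value too rests on 1 cell, Pomc+ cell 642 on HFD with 30 counts, without which it was 2.56 (0.967 to 7.50). On CD the mean levels of both groups were at or below the limit that a count of 0 allows, so no ratio is given. By diet there were 4 counts on CD and 47 on HFD, a ratio of summed counts of 9.82 (3.59 to 37.5), and of 3.80 (1.24 to 15.5) without cell 642.

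*Esr1* encodes estrogen receptor alpha. Its share of cells was alike under both labels, 9 of 34 Ghost cells (26.5%, interval 12.9% to 44.4%) and 11 of 42 Pomc+ cells (26.2%, 13.9% to 42%). The median was 0 CPM in each of the 4 groups, and the highest cell reached 360 CPM in Pomc+ and 551 CPM in Ghost cells on CD, and 136 and 417 CPM on HFD.

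Single cells set the *Esr1* ratios. Over both diets the ratio of mean CPM was 1.77, but 1.05 without Ghost cell 684 and 2.87 without Pomc+ cell 710, and 0.927 from summed counts. The HFD ratio of 2.65 became 1.12 without Ghost cell 655, and was 0.722 from summed counts. In Pomc+ cells the HFD to CD ratio of 0.494 became 1.07 without cell 710. From summed counts that ratio was 2.19 (interval 1.75 to 2.74). Of the 231 *Esr1* counts in Pomc+ cells on HFD, 157 were in cell 642. Without it the ratios of summed counts were 1.56 (1.29 to 1.89) by label over both diets, 1.95 (1.48 to 2.60) by label on HFD, and 0.808 (0.598 to 1.09) for HFD to CD in Pomc+ cells. The intervals cover counting error, and 1 cell moved each of these ratios across 1. Of the 17 cells with a count of *Npy*, a gene of Agrp neurons, 6 had an *Esr1* count and 16 a *Thra* count.

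Of the 6 estrogen-linked genes 5 were counted, and *Kiss1* was at 0 in every cell. They summed to 142 CPM in Pomc+ and 159 CPM in Ghost cells on CD, and to 92.7 and 91.9 CPM on HFD. The medians of the sum over cells were 47.3 and 164 CPM on CD, and 33.9 and 27.8 CPM on HFD. Of 4 with enough cells, 1 was 2-fold higher in Ghost cells and none lower, and by diet 1 was higher and 1 lower on HFD. Among all genes 13.3% were higher and 19.8% lower in Ghost cells, and 16.8% higher and 14.6% lower on HFD. Within CD 2 of the 4 were higher and 1 lower in Ghost cells, against 20.8% and 27% of all genes. Within HFD none was higher and 1 lower, against 18.4% and 28.8%. In normalized counts the label tally over both diets was 1 higher and 2 lower. The prolactin receptor gene *Prlr*, with a count in 29 cells, had an HFD to CD ratio of 0.315. The cell cycle gene *Ccnd1* had a label ratio of 3.86, which was 37.3 on CD and 1.25 on HFD. *Greb1*, an estrogen-induced gene, had an HFD to CD ratio of 4.05. *Ccnd1* and *Greb1* were each counted in 11 cells. The progesterone receptor gene *Pgr*, named after its values were seen, was counted in 18 cells. Its label ratio was 1.16 over both diets, 4.25 on CD and 0.0641 on HFD. Its HFD to CD ratio was 2.52 in Pomc+ and 0.0380 in Ghost cells.

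Of the 42 other receptors 15 had a count in at least 10 cells, of which 4 were 2-fold higher and 2 lower in Ghost cells, and 3 were higher and 2 lower on HFD. In normalized counts 3 were higher and 3 lower in Ghost cells, and 5 were higher and 1 lower on HFD.

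*Thra* was higher in Ghost than in Pomc+ cells on CD. Thyroid hormone receptor alpha is the main thyroid hormone receptor of the brain. On CD *Thra* ran from 0 to 225 CPM with a median of 31 and a mean of 65 in Pomc+ cells. In Ghost cells on CD it ran from 0 to 469 CPM with a median of 200.0 and a mean of 206. The groups overlapped, but 13 of 15 Ghost cells lay above the Pomc+ median and 6 above the highest Pomc+ cell.

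On HFD *Thra* ran from 0 to 1256 CPM with a median of 138 and a mean of 252 in Pomc+ cells. In Ghost cells on HFD it ran from 0 to 833 CPM with a median of 191 and a mean of 225. The groups on HFD lay in the same range, and Pomc+ cells on CD had the lowest median of the 4 groups.

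The ratio of mean *Thra* CPM, Ghost to Pomc+, was 3.17 on CD and 0.895 on HFD. The CD value stayed between 2.88 and 3.56 with any 1 cell left out, but was 1.52 in normalized counts and 1.70 from summed counts (interval 1.55 to 1.87). Against the median of all genes the CD difference was 1.78 on the log2 scale in CPM and 1.41 in normalized counts. At an equal depth of 40000 counts, the expected share of cells with a *Thra* count on CD was 95.5% in Ghost and 59% in Pomc+ cells. It covers the 12 of 15 Ghost and 21 of 23 Pomc+ cells that reach this depth, which leaves out cell 712, the only Ghost cell on CD without a *Thra* count.

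Within the CD runs of cell numbers the *Thra* ratio was 1.24 in cells 630 to 636, 2.67 in cells 658 to 669, 6.44 in cells 684 to 692 and 5.12 in cells 699 to 712, higher in Ghost cells in each. Within the HFD runs it was 0.430 in cells 637 to 657, and 2.79, 2.05 and 1.75 in the later ones, the first of which holds 1 Ghost cell and the next 1 Pomc+ cell. The run with the low ratio holds the 2 highest Pomc+ cells, numbers 645 and 644. Without them the HFD ratio was 1.52.

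By diet, *Thra* was 3.88 times higher on HFD than on CD in Pomc+ cells, and 1.10 times in Ghost cells. The Pomc+ value stayed between 3.02 and 4.36 with any 1 cell left out, and was 2.28 without cells 645 and 644 and 2.24 in normalized counts. Of the Pomc+ cells on HFD, 15 of 19 lay above the CD median and 5 above the highest CD cell. Each run holds 1 diet. The mean *Thra* level of Pomc+ cells by run was 121, 94, 42.4 and 26.1 CPM on CD, and 354, 145, 190 and 123 CPM on HFD, the 190 being that of 1 cell. The lowest HFD run stood just above the highest CD run. The difference of the diet ratio between the labels was not tested.

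Microglial and oligodendrocyte transcripts also differed by diet. The 6 microglial genes, all counted and with the protease gene *Ctss* the most abundant, summed to 192 CPM in Pomc+ and 110 CPM in Ghost cells on CD, and to 1248 and 973 CPM on HFD. All 4 with enough cells were at least 2-fold higher on HFD, and by label none was higher and 1 lower in Ghost cells. Among all genes 16.8% were higher on HFD, and 13.3% were higher and 19.8% lower in Ghost cells. In normalized counts the label tally turned to 2 higher and none lower. By diet the ratios were 7.04 for *Ctss*, counted in 28 cells, and 5.76 and 3.73 for the complement genes *C1qb* and *C1qa*. These 4 genes were 2-fold higher on HFD under either label. The 5 oligodendrocyte genes, all counted and with the myelin gene *Mbp* the most abundant, summed to 206 CPM in Pomc+ and 214 CPM in Ghost cells on CD, and to 573 and 366 CPM on HFD, where the medians of the sum over cells were 166 and 304 CPM. Of the 3 with enough cells none was 2-fold higher and 1 lower in Ghost cells, and 2 were higher on HFD and none lower. *Mobp*, a myelin gene, had an HFD to CD ratio of 9.36, which was 24 in Pomc+ and 1.55 in Ghost cells. In normalized counts it was 14.4 in Pomc+ and 5.24 in Ghost cells. In normalized counts 1 of the 3 was 2-fold higher on HFD. With the cells left out that had a count of a microglial list gene, a setting chosen after the values were seen, 2 *Thra* ratios were as follows. The label ratio on CD was 3.03 over 8 Ghost and 11 Pomc+ cells. The HFD to CD ratio in Pomc+ cells was 5.10 over 6 HFD and 11 CD cells. The part of the microglial and oligodendrocyte transcripts in the *Thra* result was not tested further.

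The last exons of *Thra* and *Nr1d1* are known to overlap on opposite strands, over 263 bases in the annotation used. The kit does not keep the strand, so reads from that stretch cannot be told apart. *Nr1d1*, a clock receptor gene, was counted in 19 cells, of which 17 had *Thra*. Its Ghost to Pomc+ ratio was 5.23 on CD and 2.83 on HFD, higher in Ghost cells as *Thra* was on CD. In normalized counts it was not past 2-fold on either diet. Over both diets it was 3.78 in CPM and 1.72 in normalized counts. The part of *Nr1d1* reads in the *Thra* result was not tested. *Nr3c2* shares 247 bases with the noncoding gene *Gm10649*, which had 1 count.

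*Thrb* encodes thyroid hormone receptor beta, which carries much of the hormone's feedback in the hypothalamus and pituitary. It was counted in 13 of 42 Pomc+ cells (31%, interval 17.6% to 47.1%) and 7 of 34 Ghost cells (20.6%, 8.70% to 37.9%), each of them a cell with *Thra*. The median was 0 CPM in every group, and the highest cells reached 89.3 CPM in Pomc+ and 109 CPM in Ghost cells on CD, and 321 and 296 CPM on HFD. Over both labels its HFD to CD ratio was 2.81, and 1.43 in normalized counts. In Pomc+ cells it was 4.70, and 1.78 in normalized counts. On HFD its label ratio of 0.364 became 0.0367 without Ghost cell 643, which carried 90.5% of the summed CPM of its group, and 1.03 without Pomc+ cells 714 and 644. From summed counts it was 0.893 (interval 0.771 to 1.03), and 0.0283 (0.0135 to 0.0526) without cell 643.

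The genes that thyroid hormone is known to control were few in these cells. Of 5 on the list 4 were counted, *Dio1* was at 0, and 2 had enough cells. *Klf9*, a transcription factor gene that both thyroid hormone and glucocorticoids induce and that stands on both lists, had an HFD to CD ratio of 2.02. *Nrgn*, a calmodulin-binding protein gene counted in 33 cells, had one of 2.28, and 1.90 in normalized counts. In Pomc+ cells these ratios were 2.79 and 2.93, and in Ghost cells 1.24 and 1.63. Over both diets neither of the 2 with enough cells differed 2-fold by label, while on HFD *Klf9* had a label ratio of 0.438. In normalized counts both genes were 2-fold lower in Ghost cells on HFD, at 0.374 and 0.466. Over both labels 2 of 2 were 2-fold higher on HFD in CPM, where 16.8% of all genes were. The list summed to 41 CPM in Pomc+ and 80.9 CPM in Ghost cells on CD, and to 147 and 76.7 CPM on HFD. The medians of the sum over cells were 10.9 and 4.49 CPM on CD, and 44.5 and 22.2 CPM on HFD, lower in Ghost cells on both diets.

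Hormone supply was thinly covered. Of 13 genes for steroid and thyroid hormone conversion and transport, 10 were counted, *Hsd11b2*, *Dio1* and *Dio3* were at 0, and 1 had enough cells. That gene, *Slc7a8*, encodes an amino acid transporter that also carries thyroid hormone, was counted in 15 cells and had a label ratio of 0.367 and an HFD to CD ratio of 0.427, and 0.718 in normalized counts. The list summed to 32.6 CPM in Pomc+ and 118 CPM in Ghost cells on CD, and to 53.4 and 37.8 CPM on HFD. The medians of the sum over cells were 0 CPM under either label on CD, and 19.6 and 0 CPM on HFD.

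*Rxra* and *Rxrb* were each counted in a minority of cells under either label. *Rxra* encodes retinoid X receptor alpha and was counted in 7 of 42 Pomc+ cells (16.7%, interval 6.97% to 31.4%) and 2 of 34 Ghost cells (5.88%, 0.720% to 19.7%). The Ghost cells held 7 *Rxra* counts and the Pomc+ cells 278, a ratio of summed counts of 0.0343 (0.0137 to 0.0717), and of 0.0635 (0.0251 to 0.134) without Pomc+ cell 663, and the ratio of mean CPM was 0.109. *Rxra* reached 147 CPM in Pomc+ cells on CD, and 36.1 CPM in the only Ghost cell of that diet with a count, number 711, which had 1 count. Without that cell the ratio of mean CPM was 0.0127.

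*Rxrb* encodes retinoid X receptor beta, which is made in most tissues. It was counted in 15 of 42 Pomc+ cells (35.7%, interval 21.6% to 52%) and 7 of 34 Ghost cells (20.6%, 8.70% to 37.9%). Its highest cells reached 312 CPM in Pomc+ and 169 CPM in Ghost cells on CD, and 195 and 490 CPM on HFD. The ratio of mean CPM was 0.919, but 0.403 without Ghost cell 649, which held the highest value, and 1.23 without Pomc+ cell 662. From summed counts it was 1.57 (interval 1.41 to 1.75), and 0.478 (0.405 to 0.563) without cell 649.

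*Rxrg*, the third gene of that family and outside the 7, was counted in 13 of 42 Pomc+ and 7 of 34 Ghost cells. Its mean was 88.9 CPM in Pomc+ and 23.1 CPM in Ghost cells on CD, and 74.4 and 10.3 CPM on HFD, a label ratio of 0.193 over both diets. At least 1 of *Rxra*, *Rxrb* and *Rxrg* was counted in 22 of 42 Pomc+ cells (52.4%, interval 36.4% to 68%) and 12 of 34 Ghost cells (35.3%, 19.7% to 53.5%). On CD the shares were 43.5% (10 of 23, 23.2% to 65.5%) in Pomc+ and 40% (6 of 15, 16.3% to 67.7%) in Ghost cells, and on HFD 63.2% (12 of 19, 38.4% to 83.7%) and 31.6% (6 of 19, 12.6% to 56.6%). At an equal depth of 40000 counts, which 39 Pomc+ and 29 Ghost cells reach, the expected shares over both diets were 44.3% and 28.4%. The intervals of the counted shares overlap between labels, and the expected shares have none. Taking the family together was chosen after the values were seen.

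**Figure D3:**
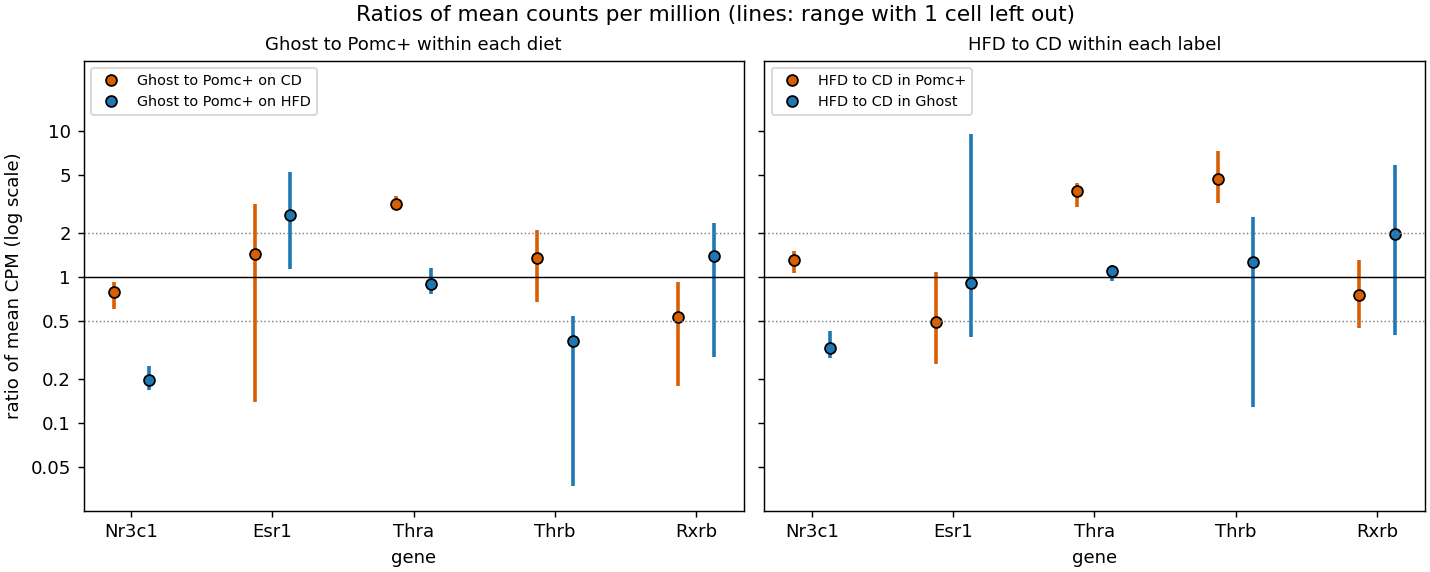
Ratio of mean CPM on a log axis for the 5 receptor genes with a count in at least 10 cells: Ghost to Pomc+ on each diet (left) and HFD to CD under each label (right). Points are the ratios, vertical lines the range with any 1 cell left out, and dotted lines mark 2-fold. *Nr3c1* on HFD stays between 0.168 and 0.245 and *Thra* on CD between 2.88 and 3.56, while the lines of *Esr1* cross or nearly reach 1; in normalized counts the *Thra* ratio on CD is 1.52.

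*Thrb*, *Rxra*, *Rxrb* and *Nr3c2* were seen only in cells that also had *Thra*, which were 20 of 20, 9 of 9, 22 of 22 and 8 of 8 cells. Cells with a *Thra* count had a median total of 382186 counts and the 13 without one 85211. Shallow cells could hold several of the genes, as cell 711 did with *Nr3c1*, *Thra* and *Rxra* in a total of 27715 counts. The highest correlations among the 21 pairs, on log2(CPM + 1) over 76 cells that share depth, were 0.363 for *Thrb* with *Rxrb* and 0.328 for *Thra* with *Thrb*. *Rxrb* and *Rxrg* were counted together in 12 cells.

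Among the 5011 genes with a count in at least 20 cells, those most like *Thra* on that scale were the ribosomal protein gene *Rpl3* with r = 0.663, the tubulin gene *Tuba1a* with 0.640 and *Fau* with 0.636. For *Nr3c1* they were the septin gene *Sept8* with 0.525 and the kinase genes *Map2k7* with 0.480 and *Map2k4* with 0.478. For *Esr1* they were *Ppargc1a*, a coactivator of mitochondrial gene expression, with 0.466, *Rpl7-ps7* with 0.406 and *Upp2* with 0.404. For *Thrb* they were *Nfs1* with 0.508, *Mark1* with 0.495 and *Tmem33* with 0.493. For *Rxrb* they were *Lyrm9* with 0.565, *Pgrmc2* with 0.548 and *Dbn1* with 0.530.

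Coactivators, which liganded receptors recruit, were all counted in at least 10 cells. Of the 6, 2 were 2-fold higher in Ghost cells and none lower, and 3 were 2-fold higher on HFD and none lower. Among all genes 13.3% were higher and 19.8% lower in Ghost cells, and 16.8% higher and 14.6% lower on HFD. In normalized counts 1 of the 6 was higher and 1 lower in Ghost cells, and 5 were higher on HFD. By diet the ratios were 2.03 for the acetyltransferase gene *Ep300*, counted in 33 cells, 2.12 for *Ncoa2* and 2.78 for the Mediator gene *Med1*. In the same order they were 6.48, 1.90 and 16.5 in Ghost cells, and 1.13, 2.36 and 0.698 in Pomc+ cells. *Med1* was counted in 17 cells, 5 of them Ghost, and its mean in Ghost cells on CD was 2.25 CPM. The list summed to 129.6 CPM in Pomc+ and 163 CPM in Ghost cells on CD, and to 194 and 250.1 CPM on HFD. The medians of the sum over cells ran the other way, by label and by diet, with 90.6 CPM in Pomc+ and 39 CPM in Ghost cells on CD, and 30.7 and 18.9 CPM on HFD. On CD 3 of the 6 were 2-fold lower and 1 higher in Ghost cells, and over both diets 4 of the 6 label ratios were below 1 in normalized counts against 2 in CPM. Corepressors, which hold genes silent under receptors without ligand, had 3 of 4 genes with enough cells, of which none was 2-fold higher and 1 lower in Ghost cells, and none differed 2-fold by diet. In normalized counts 2 were lower in Ghost cells. The lower gene in CPM was the histone deacetylase gene *Hdac3*, with a ratio of 0.412. *Ncor1* was the most widely counted, in 43 cells. Corepressors summed to 256 CPM in Pomc+ and 163 CPM in Ghost cells on CD, and to 219 and 149 CPM on HFD.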

How the data were processed

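The deposited raw table holds a count per gene and cell for 76 cells. The deposited normalized table holds a signal that the authors obtained as the count divided by 1 size factor per cell. The submitters' processing notes name cutadapt 2.10, STAR 2.7.5a, DESeq2 and GRCm38 (mm10). Some identifiers are absent from GENCODE M21, so the annotation release is unsettled and no coordinates or sequences are printed; exon lengths come from M21. Symbols matched 52073 of 56980 identifiers. CPM, group means and ratios were computed in Python 3.11.15 with numpy 2.4.6, scipy 1.17.1 and pandas 2.3.3, and drawn with matplotlib 3.10.9. A mean of 0 was set to 3 counts over the group's summed counts. No cell was left out, except under equal depth, which drops shallower cells. Ratios of 2 or more were counted on genes with a count in at least 10 cells, and the ratio code was tested on simulated data. List genes are named when past 2-fold on the same side in CPM and normalized counts for label or diet, at most 3 per list by cells with a count, with the most widely counted gene; likeness takes the 3 highest r. The receptors and lists were chosen with earlier results of these data known. Alternatives were normalized counts, CPM with the genes seen in all cells taken out, summed counts, a filter on cells (at least 1000 genes, at most 20% mitochondrial counts), single diets, each cell left out, summed counts without the top cell, higher count minimums and equal depth.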

Additional observations from a re-analysis of the deposited data

How the results depend on the processing

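Over the planned settings, the share of genes past 2-fold stayed within 1.5 times its value in 16 of 18 cases and moved to 21.9% by label and 20.02% by diet for genes with a count in at least 20 cells. Label ratios stayed within 1.5-fold in 30 of 55 cases, ratios within a diet or a label in 37 of 78, and shares of cells within their intervals in 60 of 70. Settings added after seeing the data kept 36 of 54 ratios within a diet or a label. Ratios past 2-fold turned direction in 3 cases by label and 2 others, while ratios of any size crossed 1 in 10 of the 55 and 25 of 132 cases. Without the cell with the most counts of the gene, 4 of 13 ratios of summed counts stayed within 1.5-fold and 6 crossed 1, and that of *Esr1* for HFD to CD in Pomc+ cells reversed to 0.808. The values that moved follow, and the causes were not tested.

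In normalized counts the label ratio was 0.275 for *Nr3c1* and 0.569 for *Rxrb*. On CD it was 0.478 for *Nr3c1*, 1.52 for *Thra*, 0.732 for *Thrb* and 0.108 for *Rxra*. On HFD it was 4.604 for *Esr1*, 0.128 for *Nr3c1* and 0.0668 for *Rxra*. For HFD to CD it was 0.307 for *Esr1*, 6.84 for *Nr3c2*, 2.24 for *Thra*, 1.78 for *Thrb* and 0.492 for *Rxrb* in Pomc+ cells, and 0.456 for *Rxra* in Ghost cells. The *Nr3c2* ratios in Pomc+ cells rest on a CD mean below the limit that a count of 0 allows. From summed counts the label ratio was 0.927 for *Esr1*, 0.516 for *Nr3c2*, which reversed, 1.11 for *Thrb*, 0.0343 for *Rxra* and 1.57 for *Rxrb*. Without cells under 1000 genes or over 20% mitochondrial counts it reversed to 0.343 for *Nr3c2*. On CD alone it was 0.791 for *Nr3c1*, 3.17 for *Thra*, 1.35 for *Thrb*, 0.222 for *Rxra* and 0.533 for *Rxrb*, and on HFD alone 0.198, 0.895, 0.364, 0.0219 and 1.38.

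With 1 cell left out, the label ratio ran from 1.05 to 2.87 for *Esr1*, 0.358 to 19.99 for *Nr3c2*, 0.265 to 0.792 for *Thrb*, 0.0127 to 0.157 for *Rxra* and 0.403 to 1.23 for *Rxrb*. On CD it ran from 0.138 to 3.13 for *Esr1*, 0.671 to 2.103 for *Thrb*, 0.212 to 0.516 for *Rxra*, with no Ghost count left without cell 711, and 0.178 to 0.915 for *Rxrb*. On HFD it ran from 1.12 to 5.22 for *Esr1*, 0.329 to 21.5 for *Nr3c2*, 0.0367 to 0.538 for *Thrb* and 0.281 to 2.34 for *Rxrb*. For HFD to CD in Ghost cells it ran from 0.385 to 9.46 for *Esr1*, 0.128 to 2.55 for *Thrb* and 0.399 to 5.86 for *Rxrb*. In Pomc+ cells it ran from 0.251 to 1.07 for *Esr1*, 3.44 to 28.5 for *Nr3c2*, 3.18 to 7.32 for *Thrb*, 0.702 to 2.37 for *Rxra* and 0.445 to 1.30 for *Rxrb*.

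For *Nr3c1* and *Thra*, which were counted in most cells, further settings were chosen after seeing the data. Without cells holding a microglial gene the *Nr3c1* ratio was 0.0688 by label on HFD and 0.132 by diet in Ghost cells, both resting on 4 Ghost cells on HFD of which 1 had a count. Without the 2 highest cells of the higher group *Nr3c1* gave 0.314 by label on HFD, 0.547 by diet in Ghost and 0.820 in Pomc+ cells, and *Thra* gave 1.52 by label on HFD and 2.28 by diet in Pomc+ cells. Within runs of cell numbers *Nr3c1* gave 1.58, 0.442 and 2.22 on CD and 0.123 on HFD, and *Thra* gave 1.24, 6.44 and 5.12 on CD and 0.430, 2.79, 2.05 and 1.75 on HFD.

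In cells with at least 40000 counts the expected share at that depth was 1.44% for *Nr3c2* and 0.587% for *Rxra* in Ghost cells, and 3.10% for *Nr3c2* in Pomc+ cells. At 10000 counts without the genes seen in all cells it was 36.1% for *Nr3c1* and 0.417% for *Nr3c2* in Ghost cells, and 1.98% for *Nr3c2*, 61.9% for *Thra*, 15.4% for *Thrb* and 19.9% for *Rxrb* in Pomc+ cells. With at least 5 counts *Nr3c2* was seen in 2.38% of Pomc+ cells. Lower shares follow from fewer counts. No setting replaces the missing mouse labels.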

Other observations

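Markers of other cells gave these values. *Npy*, a gene of Agrp neurons, was counted in 13 of 34 Ghost and 4 of 42 Pomc+ cells, with a ratio of mean CPM of 10.2; *Npy* and *Agrp* summed to 2.68 CPM in Pomc+ and 89.5 CPM in Ghost cells on CD, and to 11.9 and 63.4 CPM on HFD. *Npy* was the 1 gene of the pair with enough cells and did not differ 2-fold by diet. The opioid gene *Pdyn*, on the list for kisspeptin neurons, was counted in 32 cells with a label ratio of 0.232 and an HFD to CD ratio of 0.386 (0.542 in normalized counts), and *Kiss1* was at 0. The *Pdyn* label ratio was 0.0923 on CD and 0.727 on HFD. Its HFD to CD ratio was 2.26 in Ghost and 0.287 in Pomc+ cells. *Tac2*, the neurokinin B gene of that list, named after its values were seen, was counted in 4 Ghost and 0 Pomc+ cells, with means of 19.8 and 0 CPM. That list summed to 221 CPM in Pomc+ and 26.3 CPM in Ghost cells on CD, and to 63.3 and 76.6 CPM on HFD. Among dopamine neuron genes *Ddc* was counted in 24 cells and *Slc18a2* had a label ratio of 0.310. Of the 3 with enough cells none was 2-fold higher and 1 lower in Ghost cells (2 in normalized counts), and none differed 2-fold by diet. The list summed to 110.3 CPM in Pomc+ and 57.1 CPM in Ghost cells on CD, and to 132 and 112 CPM on HFD. Endothelial genes stayed at or below 16.3 CPM in every group, with *Cldn5* in 4 cells, and tanycyte and ependymal genes at or below 12.9 CPM, with *Col23a1* in 6 cells and *Rax* at 0. The part of these cells in the receptor values was not tested.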
